A study of Mus musculus with 2 samples.

Results

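The genes described here are 10 members of the Notch signalling pathway in the newborn mouse ovary: the ligand genes Jag1, Jag2 and Dll4, the receptor genes Notch1, Notch2 and Notch3, and the target genes Hes1, Hey1, Hey2 and Heyl. They were chosen by gene symbol, and all 10 were among the 31057 genes counted. Whole ovaries of untreated CD1 mice at postnatal day 2, when the reserve of primordial follicles has formed, were dissociated with ColIV, a collagenase, and AccuMax and captured as 2 single-cell libraries. Each library pooled ovaries of several pups of one litter, so the libraries are the replicates (n = 2) and cells are not. All samples share strain, age and tissue, with no genotype or treatment compared, and the comparisons are between cell types of the same ovaries. The comparisons ask which cell types carry each ligand, receptor and target gene, and how the oocyte and granulosa pair stands beside the vessel cells. The same sums of counts enter several comparisons, which are therefore not independent of each other.

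A unique molecular identifier (UMI) marks each captured transcript, so a UMI count is a count of molecules. The libraries held 4094 and 4847 cells with 54471790 and 59074480 UMIs and medians of 8315.5 and 5798 UMIs per cell. After filters on genes and mitochondrial counts and removal of 96 and 93 likely doublets, 3642 and 4371 cells remained, and the libraries shared 21 cell barcodes. Clusters were named from marker genes, with the members and the other listed Notch genes left out of the genes used to cluster, and the types are called germ-like and so on. In replicates 1 and 2, germ-like cells numbered 239 and 675, granulosa-like 1663 and 621, interstitial-like 1397 and 2499, mesothelial-like 187 and 291, perivascular-like 51 and 51, endothelial-like 60 and 33, and immune-like 33 and 64. A per-cell gate used Ddx4, Dazl and Ooep (germ), Foxl2, Fst and Wnt6 (granulosa), Col1a2 and Dcn (interstitial), Rgs5 (perivascular), Cdh5 (endothelial) and Upk3b (mesothelial). It gave the same type for 98.6% of the 6957 cells that both methods named. This agreement was partly built in. All gate genes were in the marker lists that named the clusters, and a cluster gated mostly as another type was left unnamed. Levels below are CPM, the UMIs of a gene summed over the cells of a type in one library, scaled to a common total of all UMIs of those cells as counts-per-million are. Fold changes are given with a standard error (SE) worked back from the test statistic of the fit. A member was called higher or lower when its log2 fold change between summed counts exceeded 1 in size and its adjusted p over all genes tested was under 0.05.

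Notch receptors are single-pass membrane proteins that are bound by Jagged or Delta-like ligands on a neighbouring cell. Binding exposes the receptor to cleavage by ADAM metalloproteases and then by gamma-secretase, and the released intracellular domain joins the DNA-binding protein RBPJ to switch on genes such as those of the Hes and Hey repressor families. In the ovary the pathway is known for contact between germ cells that carry Jagged1 and pregranulosa cells that carry Notch2 while germ cell cysts break apart and primordial follicles form. In blood vessels, Dll4 with Notch1 in endothelium and Notch3 in mural cells, the contractile cells wrapped around small vessels, are the classical partners.

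Promoter windows of 7 of the 10 members were present in the RefSeq table (GRCm38.p6), each running from 250 bases before the transcription start to 50 after it. Hes1, Hey1 and Heyl had no window there and were not searched. Windows are shown 5′ to 3′ on the gene's strand for Jag1 and Notch2, named for the oocyte and granulosa pair, and for the vessel ligand Dll4. The window of Hey2, the only target with one, is shown as well. Capitals mark GTGGGAA, the motif read by RBPJ, and CACGCG, the class C site read by Hes and Hey proteins, each searched on both strands, so that a match on the other strand appears as the reverse complement. CACGTG, the E box, was searched too and is absent from these windows.
Jag1 (chr2:137116471-137116770, minus strand): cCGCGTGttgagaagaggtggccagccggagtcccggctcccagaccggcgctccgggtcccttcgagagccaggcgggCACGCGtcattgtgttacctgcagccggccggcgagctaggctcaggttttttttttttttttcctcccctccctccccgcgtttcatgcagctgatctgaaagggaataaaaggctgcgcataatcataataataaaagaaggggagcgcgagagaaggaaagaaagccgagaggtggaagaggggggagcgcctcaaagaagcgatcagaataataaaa
Notch2 (chr3:98013288-98013587, plus strand): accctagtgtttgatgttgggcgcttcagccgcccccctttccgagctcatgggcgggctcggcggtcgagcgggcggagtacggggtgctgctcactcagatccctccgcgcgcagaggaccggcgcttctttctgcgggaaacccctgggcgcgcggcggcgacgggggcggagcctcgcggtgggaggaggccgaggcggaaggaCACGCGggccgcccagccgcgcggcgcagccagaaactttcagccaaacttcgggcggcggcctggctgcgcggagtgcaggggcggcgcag
Dll4 (chr2:119325534-119325833, plus strand): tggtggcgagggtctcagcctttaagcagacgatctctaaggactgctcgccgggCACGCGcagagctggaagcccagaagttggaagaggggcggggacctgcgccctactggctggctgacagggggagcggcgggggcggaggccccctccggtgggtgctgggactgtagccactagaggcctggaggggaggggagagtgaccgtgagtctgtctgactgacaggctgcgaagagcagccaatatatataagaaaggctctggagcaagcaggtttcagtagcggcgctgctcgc
Hey2 (chr10:30842734-30843033, minus strand): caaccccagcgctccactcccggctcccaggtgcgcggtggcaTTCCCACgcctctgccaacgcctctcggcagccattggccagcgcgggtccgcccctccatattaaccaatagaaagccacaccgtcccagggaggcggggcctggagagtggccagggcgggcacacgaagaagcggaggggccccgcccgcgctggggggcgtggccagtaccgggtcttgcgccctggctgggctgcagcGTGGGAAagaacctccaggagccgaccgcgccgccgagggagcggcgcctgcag

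GTGGGAA occurred at bases 44 (minus strand) and 247 (plus strand) of the Hey2 window and in none of the 6 windows of ligand and receptor genes. It is found in 6.38% of all 32851 promoter windows. CACGCG occurred in the windows of Jag1 (bases 2 and 80), Notch2 (base 209), Dll4 (base 56) and Jag2 (base 269), and in 9.27% of all windows. CACGTG is in 7.15% of all windows. None of these motifs was found in the windows of Notch1 and Notch3. The Notch1 window (chr2:26503773-26504072, minus strand) lies inside the gene span given below, which ends at 26516663. The 2 annotations thus place the start of Notch1 differently, and the start of that span was not searched. A match is a run of letters and not evidence of binding.

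**Figure D1:**
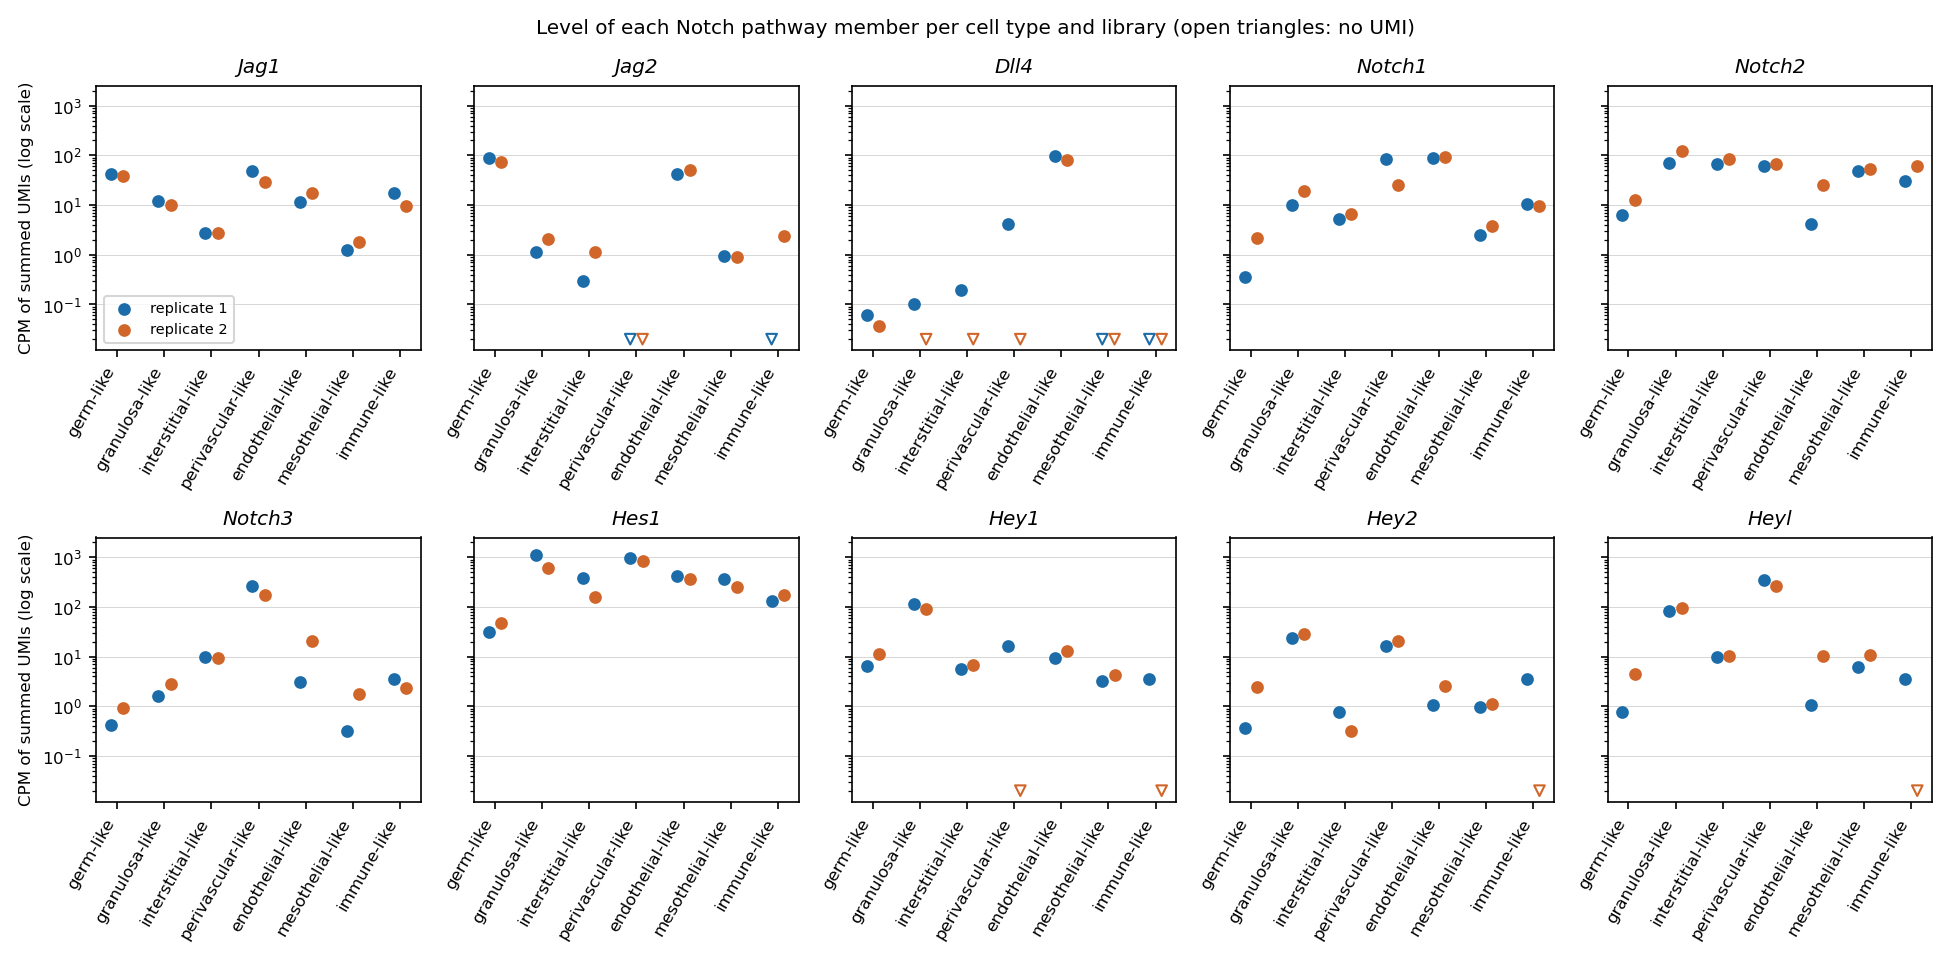
Level of each of the 10 members (CPM of summed UMIs, log axis) in 7 cell types, with 1 point per library and open triangles where no UMI was counted. Jag1 and Jag2 stood high in germ-like cells, Dll4 in endothelial-like cells, Notch3 and Heyl in perivascular-like cells and Hey1 in granulosa-like cells, in both libraries.

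The Jagged ligands were germ-like transcripts, with a second site of each in the vessels. Jag1 (ENSMUSG00000027276, chr2:137081456-137116644, minus strand) had 43.1 and 38.5 CPM in germ-like cells of replicates 1 and 2, a mean of 40.8 ± 3.29 CPM (SD, n = 2), and 49.0 and 29.0 CPM in perivascular-like cells, where these values rest on 12 and 7 UMIs. Germ-like and perivascular-like ranges overlapped. Below them came endothelial-like cells with 11.5 and 17.8 CPM, immune-like cells with 17.4 and 9.52 CPM (5 and 4 UMIs) and granulosa-like cells with 12.04 and 10.03 CPM, 3 neighbours whose ranges overlapped. Interstitial-like cells had 2.73 and 2.78 CPM and mesothelial-like cells 1.26 and 1.78 CPM, and all their values lay under those of the 5 other types. Against all other named cells, Jag1 was higher in germ-like cells by a log2 fold change of 2.66 (SE 0.28, adjusted p = 0.00148). The granulosa-like level was 27.9% and 26.1% of the germ-like level, and the 10 germ markers reached 0.532% and 0.979% of their germ-like sum there. The part of germ RNA in the granulosa-like Jag1 level was not tested.

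Jag2 (ENSMUSG00000002799, chr12:112907819-112929776, minus strand), the other Jagged ligand, had 89.8 and 74.6 CPM in germ-like cells (82.2 ± 10.7, SD, n = 2), from 1489 and 2060 UMIs. Endothelial-like cells followed with 42.7 and 50.9 CPM from 41 and 20 UMIs, and every other value lay at or under 2.38 CPM. No Jag2 UMI was counted in perivascular-like cells, which allows up to 12.2 and 12.4 CPM in the 2 libraries. Germ-like cells supplied 95.6% and 97.2% of the Jag2 UMIs of named cells, although they supplied 32.4% and 48.7% of all UMIs. The germ-like log2 fold change against all other cells was 5.43 (SE 0.17, adjusted p = 0.000312). With 2 of 10 members called higher in germ-like cells, the count stood beside 29.8% of all genes tested called higher there. The other 8 members were called lower, beside 31.3% of all genes, and the median of the members was -2.91 against 0.01 for all genes tested. Among these 8, Dll4 had 2 UMIs in germ-like cells and passed the count filter through its endothelial-like counts.

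Dll4 (ENSMUSG00000027314, chr2:119325784-119335962, plus strand), the Delta-like ligand of angiogenic endothelium, was an endothelial-like transcript. It had 98.0 and 81.4 CPM there from 94 and 32 UMIs, against 7 UMIs in all other named cells of both libraries. A single UMI was counted in perivascular-like cells of replicate 1, and none in mesothelial-like or immune-like cells. Over both libraries its endothelial-like level was 1280 times that of granulosa-like cells (95% exact counting interval 347 to 10700, 2 UMIs) and at least 238-fold higher than the 3-count floor of mesothelial-like cells. Against perivascular-like cells the ratio was 45.3 (7.99 to 1800), an interval that covers counting error only, as do all intervals and floors given here. That ratio rests on a single perivascular-like UMI, and within replicate 1 it was 24.0, with no perivascular-like UMI in replicate 2. Endothelial-like cells had 2 of 10 members called higher, Dll4 and Notch1, beside 9.6% of all genes. Notch2 (-1.96, adjusted p = 0.0214) and Heyl (-2.72, adjusted p = 0.0255) were called lower there, beside 14.7% of all genes. Both lower calls were lost with the marker gate per cell (-0.33 and -1.08, adjusted p = 0.669 and 0.217), and replicate 1 alone gave -3.24 and -4.91 against -0.92 and -0.87 in replicate 2 alone.

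The receptor genes differed in where they were highest. Notch1 (ENSMUSG00000026923, chr2:26457903-26516663, minus strand) had 88.6 and 91.5 CPM in endothelial-like cells, and 85.7 and 24.9 CPM in perivascular-like cells from 21 and 6 UMIs. All values elsewhere lay between 0.362 and 19.5 CPM, with granulosa-like cells at 10.01 and 19.5 CPM. Its endothelial-like log2 fold change was 4.10 (SE 0.24, adjusted p = 6.58e-06). Against the other cells, the perivascular-like value was 3.07 (SE 0.53, adjusted p = 0.0127), with 3.67 in replicate 1 and 1.92 in replicate 2 taken alone. That call was lost when each cell was thinned to 2000 UMIs (adjusted p = 0.0940) and when the other cell types were weighted equally (adjusted p = 0.114). In the perivascular-like cells the 12 endothelial markers summed to 355 and 282 CPM, 6.14% and 5.49% of their endothelial-like level. Replicate 1 had 7 of the 12 at 0 (Cdh5, Pecam1, Kdr, Cldn5, Flt1, Erg and Tie1). Replicate 2 had 6 at 0 (Egfl7, Cldn5, Flt1, Plvap, Erg and Tie1), while Cdh5, Pecam1 and Kdr were counted there. The part of endothelial RNA in the Notch1 value was not tested.

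Notch2 (ENSMUSG00000027878, chr3:98013527-98150361, plus strand) was spread over the somatic cells of the ovary. Granulosa-like cells had 69.5 and 120.3 CPM, interstitial-like cells 66.9 and 85.1 CPM, perivascular-like cells 61.2 and 66.3 CPM, and mesothelial-like cells 47.7 and 53.8 CPM. The first 2 of these ranges overlapped. Interstitial-like clusters differed among themselves, with 204 and 200 CPM in cluster 3 (53 and 294 cells). Cluster 4 (180 and 783 cells) had 39.0 and 42.7 CPM, values given without a test. Immune-like cells had 31.3 and 61.9 CPM, while endothelial-like cells had 4.17 and 25.4 CPM and germ-like cells 6.39 and 12.5 CPM. The lower endothelial-like value rests on 4 UMIs and the higher on 10. Notch2 was called higher in granulosa-like cells (log2 fold change 1.57, SE 0.29, adjusted p = 0.00513) and in interstitial-like cells (1.16, SE 0.20, adjusted p = 0.00174). In these 2 tests the other named cells weigh by their UMIs. Germ-like cells, low in Notch2, gave 32.4% and 48.7% of the UMIs of all named cells. Directly between granulosa-like and interstitial-like cells the log2 fold change was 0.26 (SE 0.35, adjusted p = 0.598). After thinning to 2000 UMIs per cell, the values against all other named cells were 0.63 (adjusted p = 0.0674) and 0.32 (adjusted p = 0.339). The interstitial-like value also fell under the threshold of 1 with library totals as the only scaling (0.95) and with the other types weighted equally (0.86).

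Notch3 (ENSMUSG00000038146, chr17:32120820-32166852, minus strand), the mural cell receptor, had 269 and 174 CPM in perivascular-like cells and at most 20.3 CPM in any other type. The value of 20.3 CPM was in endothelial-like cells of replicate 2, from 8 UMIs, against 3.13 CPM in replicate 1. In the same cells the 10 perivascular markers summed to 277 CPM in replicate 1 and 694 CPM in replicate 2, and the 9 interstitial markers to 52.1 and 437 CPM. The perivascular list is not specific to that type, since germ-like cells held it at 625 and 513 CPM. The part of perivascular or interstitial cells or RNA in the Notch3 value was not tested. Interstitial-like cells had 9.86 and 9.59 CPM. The perivascular-like log2 fold change against all other cells was 6.08 (SE 0.33, adjusted p = 9.37e-05). Notch3 was also called higher in interstitial-like cells (2.09, SE 0.28, adjusted p = 0.000492), but the call was lost after thinning (1.06, adjusted p = 0.0862) and the direction turned to -1.88 (adjusted p = 0.000461) when the other types were weighted equally, which gives perivascular-like cells more weight. Interstitial-like cells had 2 of 10 members called higher, beside 17.2% of all genes, 6 called lower, beside 27.4%, and a member median of -2.02 against -0.13. Among these 6, Dll4 had 2 UMIs in interstitial-like cells and passed the count filter through its endothelial-like counts. The count in perivascular-like cells was 3 of 10 (Notch1, Notch3 and Heyl) beside 4.67% of all genes, with Jag2 called lower beside 5.64%, and the medians were 1.15 for the members and -0.52 for all genes. That Jag2 call rests on cells without a Jag2 UMI and was lost after thinning (adjusted p = 0.424).

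All 4 target genes were called higher in granulosa-like cells and lower in germ-like cells, where the call for Hey2 was lost after thinning (-1.13, adjusted p = 0.217). Hes1, Hey2 and Heyl also had their next-highest or highest level in perivascular-like cells, where Hey1 had 4 and 0 UMIs. Hes1 (ENSMUSG00000022528, chr16:30064384-30067796, plus strand), a transcriptional repressor that Notch and other signals switch on, had 1117 and 604 CPM in granulosa-like cells. Perivascular-like cells had 951 and 833 CPM. These ranges overlapped. Endothelial-like cells had 411 and 361 CPM, mesothelial-like cells 362 and 253 CPM, and interstitial-like cells 378 and 159 CPM, whose ranges also overlapped in turn. Germ-like cells had 31.2 and 48.0 CPM, the lowest of the 7 types. Hes1 was called higher in granulosa-like cells (log2 fold change 2.66, SE 0.37, adjusted p = 0.00179). Tissue dissociation is known to raise immediate-early genes, and 8 of them (Fos, Fosb, Jun, Junb, Egr1, Atf3, Ier2 and Zfp36) summed to 129 and 427 CPM in germ-like cells against 4748 to 9722 CPM in the 6 somatic types. In granulosa-like cells this sum was 9027 CPM in replicate 1 and 5621 CPM in replicate 2, the same order as Hes1. In interstitial-like cells it was 9350 and 9722 CPM, while Hes1 was higher in replicate 1, and its part in the Hes1 levels was not tested.

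Hey1 (ENSMUSG00000040289, chr3:8663359-8667256, minus strand) had 113 and 89.5 CPM in granulosa-like cells and at most 16.3 CPM elsewhere. Hey2 (ENSMUSG00000019789, chr10:30832359-30842801, minus strand) had 23.6 and 28.8 CPM in granulosa-like cells, followed by perivascular-like cells with 16.3 and 20.7 CPM (4 and 5 UMIs), and at most 3.48 CPM elsewhere. Heyl (ENSMUSG00000032744, chr4:123233556-123249875, plus strand) had 351 and 261 CPM in perivascular-like cells and 84.8 and 93.4 CPM in granulosa-like cells, and at most 10.9 CPM in the other 5 types. All are repressors of the Hey family, whose members are among the most direct readouts of Notch in vessels and heart. In granulosa-like cells the log2 fold changes were 3.90 for Hey1 (adjusted p = 0.000137), 4.52 for Hey2 (adjusted p = 0.000338, with 5.12 in replicate 1 alone) and 3.70 for Heyl (adjusted p = 6.03e-05). Heyl was also called higher in perivascular-like cells (3.53, SE 0.36, adjusted p = 0.00154). Its granulosa-like value fell to 0.77 when the other types were weighted equally, since the perivascular-like level then counts for more.

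Granulosa-like cells had the most members called higher, 6 of 10 (Notch1, Notch2, Hes1, Hey1, Hey2 and Heyl), beside 17.6% of all genes. Called lower were 3 (Jag2, Dll4 and Notch3) beside 24.2%, and the member median was 1.62 against -0.02. Dll4 had 2 UMIs in granulosa-like cells and passed the count filter through its endothelial-like counts. Germ-like cells, part of the sum compared against, supplied 95.6% and 97.2% of the Jag2 UMIs of named cells. Neither Jag2 nor Dll4 was called directly between granulosa-like and interstitial-like cells. The lower Notch3 call (-1.13, adjusted p = 0.0340) was lost with the marker gate (-0.94, adjusted p = 0.0738) and with doublets kept (-0.97). The Notch1 value in granulosa-like cells moved with the processing. It was 1.67 (SE 0.35, adjusted p = 0.00748), with 1.01 in replicate 1 alone, 0.89 after thinning (adjusted p = 0.124) and -0.84 with the other types weighted equally (adjusted p = 0.0844). Mesothelial-like cells, the surface layer of the ovary, had 0 of 10 members called higher beside 10.9% of all genes, and immune-like cells 0 of 10 beside 9.95%, while 6 members were called lower in the former, beside 20.2% of all genes, and 3 in the latter, beside 11.4%. The 3 immune-like calls, and 5 of the 6 mesothelial-like ones, did not pass the test after thinning. At an unadjusted p under 0.05 and over 2-fold higher the counts were also 0 and 0, and DESeq2 called 0 in each. Of the 70 pairs of member and cell type, 15 were called higher, while 4.67% to 29.8% of all genes were called higher in the 7 types.

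The oocyte and granulosa pair was compared directly in a fit over all 14 sums of cell type and library. Between germ-like and granulosa-like cells, 9 of 10 members were called, with both Jagged genes higher in germ-like cells and 7 members lower. Of all 14259 genes, 26.7% were called higher and 30.8% lower. Jag1 was higher by 1.88 (SE 0.21, adjusted p = 2.51e-06), 3.58 and 3.84 times on the CPM scale in replicates 1 and 2. Jag2 was higher by 5.82 (SE 0.35, adjusted p = 3.73e-08), with 6.16 in replicate 1 and 5.11 in replicate 2 alone. Notch2 was lower by a log2 fold change of -3.29 (SE 0.39, adjusted p = 5.35e-06), so that granulosa-like cells carried 10.9 and 9.66 times the germ-like level. Notch1 was lower too (-3.32, adjusted p = 8.05e-05), as was Notch3 (-1.54, adjusted p = 0.0248), whose call was lost after thinning (adjusted p = 0.275) and with only the 2 cell types in the fit (adjusted p = 0.0508).

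Each of the 4 targets was lower in germ-like than in granulosa-like cells, with log2 fold changes of -4.42 for Hes1 (adjusted p = 8.66e-07), -3.47 for Hey1 (4.59e-07), -4.06 for Hey2 (1.33e-05) and -4.93 for Heyl (1.59e-06). The 2 libraries differed in size here. Replicate 1 alone gave -5.17 for Hes1, -4.09 for Hey1, -5.59 for Hey2, -6.55 for Heyl and -4.37 for Notch1, and replicate 2 alone gave -3.62, -2.94, -3.45, -4.29 and -3.04. In germ-like cells the 10 granulosa markers summed to 20.7 CPM in replicate 1 and 125 CPM in replicate 2, and the part of granulosa RNA in these values was not tested. Different clusters made up the germ-like cells of the libraries: cluster 5 held 200 of the 239 cells of replicate 1, and cluster 22 held 437 of the 675 of replicate 2. Dll4, with 2 UMIs in each of the types, was the member not called.

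**Figure D2:**
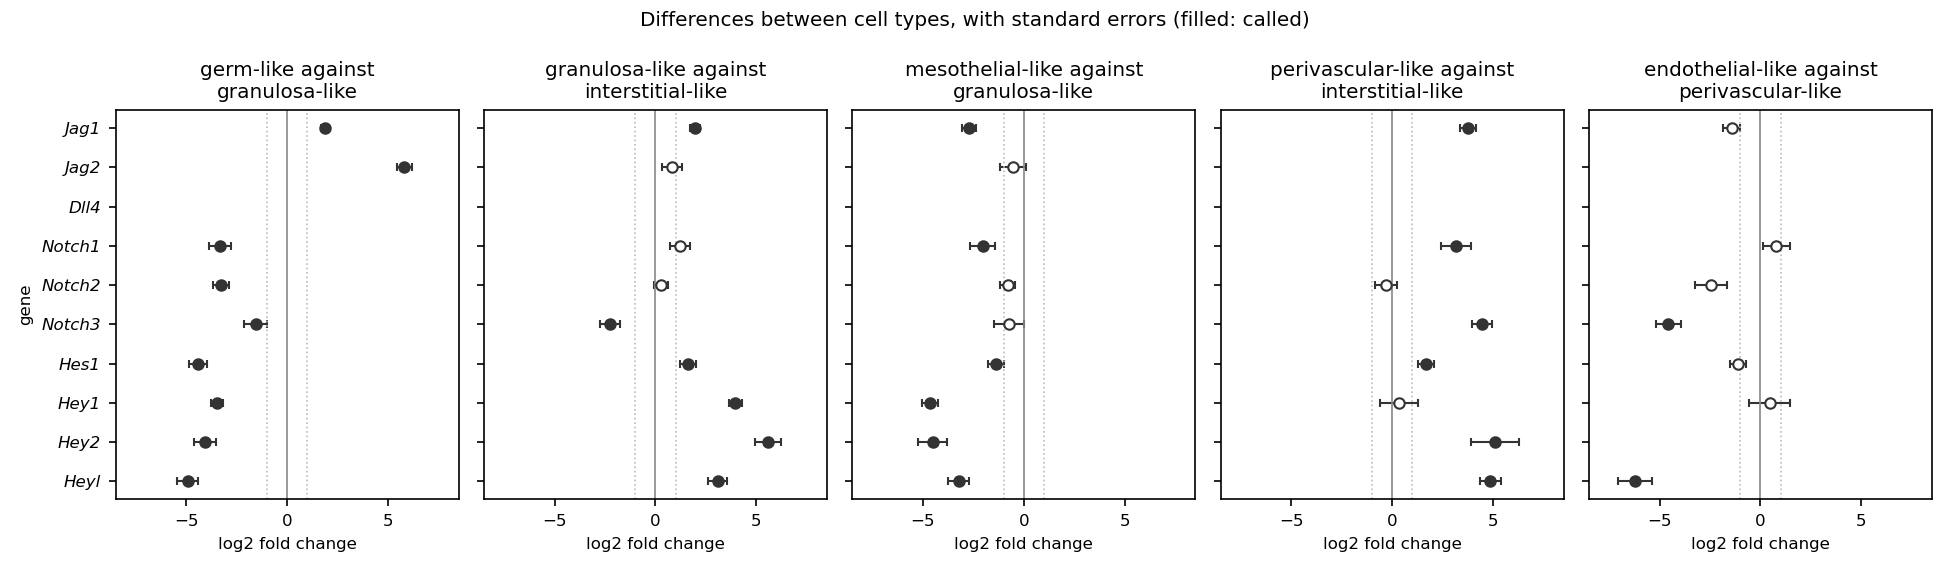
Log2 fold changes of the members in 5 comparisons between cell types, with standard errors worked back from the test statistic of the fit over 14 sums. Filled points were called, dotted lines stand at 2-fold, and members with 3 UMIs or fewer in a type, such as Dll4 in 5 comparisons, are left out.

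Granulosa-like cells were set against interstitial-like cells, the stroma around the follicles. Of 10 members, 5 were called higher in granulosa-like cells beside 14.4% of all genes, and 1 lower beside 12.6%. The members that were higher were the 4 targets and Jag1: Hey2 by 5.58 (adjusted p = 1.72e-05), with 4.64 in replicate 1 alone, Hey1 by 3.96 (1.15e-06), Heyl by 3.08 (0.000153), Jag1 by 1.95 (2.46e-05) and Hes1 by 1.62 (0.00384). Notch3 was lower (-2.25, adjusted p = 0.00211). Notch2, the receptor named for granulosa cells, had a log2 fold change of 0.26 (SE 0.35, adjusted p = 0.598), and its CPM ratio was 1.04 in replicate 1 and 1.41 in replicate 2. Notch1 had 1.23 (adjusted p = 0.0605), Jag2 0.81 (adjusted p = 0.208) and Dll4 -0.16 (adjusted p = 0.955).

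Mesothelial-like cells were compared with granulosa-like cells. Beside 8.46% of all genes, 0 of 10 members were called higher in mesothelial-like cells, and 6 were called lower beside 7.22%. No member was higher at an unadjusted p under 0.05 with over 2-fold change, and DESeq2 called 0 higher. Hey1 was lower by a log2 fold change of -4.63 (adjusted p = 7.86e-06), Hey2 by -4.52 (0.000559), Heyl by -3.22 (0.000641), Jag1 by -2.71 (9.09e-05), Notch1 by -2.04 (0.0321) and Hes1 by -1.37 (0.0195). The calls for Notch1 and Hes1 were lost with the marker gate per cell (adjusted p = 0.0619 and 0.0540), and that for Notch1 also after thinning (adjusted p = 0.205). Notch2 had -0.79 (adjusted p = 0.162). The granulosa marker list summed to 791 and 775 CPM in mesothelial-like cells, which hold this list at a higher level than the other non-granulosa types do.

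The vessel cells were examined in 2 further comparisons. Against interstitial-like cells, perivascular-like cells had 6 of 10 members higher, beside 3.51% of all genes, and 0 lower, beside 2.73%. These were Hey2 (5.09, adjusted p = 0.0191), Heyl (4.87, 8.09e-05), Notch3 (4.46, 6.97e-05), Jag1 (3.77, 7.00e-05), Notch1 (3.18, 0.0187) and Hes1 (1.68, 0.0191). With the marker gate per cell, 3 of these calls held (Notch3, Jag1 and Heyl), and Notch1, Hes1 and Hey2 had 3.20, 1.66 and 4.90, close to the values above, at adjusted p = 0.0737, 0.0888 and 0.0638. Replicate 1 alone gave 3.96 for Notch1, 1.30 for Hes1 and 4.15 for Hey2, and replicate 2 alone gave 1.84, 2.31 and 5.48. Perivascular-like cells carried the 9 interstitial markers at 1734 and 2125 CPM, and the part of interstitial cells or RNA in this was not tested. No member was lower at an unadjusted p under 0.05 with over 2-fold change, nor by DESeq2.

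Between the 2 vessel types, 2 of 10 members were called higher in endothelial-like cells, beside 4.4% of all genes, and 2 lower, beside 3.87%. The ligands Dll4 and Jag2 were higher. Jag2 stood at 42.7 and 50.9 CPM against no UMI in perivascular-like cells, at least 7.31-fold higher than the 3-count floor over both libraries, and its call was lost with the marker gate (adjusted p = 0.0543) and after thinning (adjusted p = 0.0791). The Dll4 call was lost after thinning as well (adjusted p = 0.0551). Heyl was lower by -6.23 (SE 0.85, adjusted p = 0.000484) and Notch3 by -4.57 (SE 0.63, adjusted p = 0.000540), in each library. For Heyl replicate 1 alone gave -8.13 and replicate 2 alone -4.59, and for Notch3 -6.27 and -3.02. The perivascular marker list, which germ-like cells hold too, had its higher endothelial-like sum in replicate 2. The part of perivascular RNA in this was not tested. Jag1 had -1.42 (adjusted p = 0.0520), Hes1 -1.11 (adjusted p = 0.115) and Notch1 0.79 (adjusted p = 0.576). With every gene tested in place of the filter on low counts, 7 members were called, and the share of all genes called that way was not computed.

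Within the granulosa-like cells, 6 clusters carried the members at different levels. Clusters were formed from the same cells, so their values are given without a test. Clusters 0 and 1, led by Inhbb, Amh and Hsd3b1, genes of growing follicles, had Amh at 173 to 286 CPM, while the others had at most 73.4 CPM. Hes1 in these 2 clusters was 548 and 494 CPM in replicate 1 and 130.2 and 133 CPM in replicate 2. In the other 4 it ranged from 892 to 1878 CPM in replicate 1 and from 653 to 1078 CPM in replicate 2, so the groups did not overlap within a library. Notch2 was 39.9 CPM in both Amh clusters of replicate 1 and 51.8 and 47.8 CPM in replicate 2, against 63.6 to 108 CPM and 99.0 to 167 CPM in the other 4. Hey1 and Hey2 were highest in clusters 2, 7 and 10, led by Serpina1b, chemokine genes and Colec11, with Hey1 at 111 to 171 CPM and Hey2 at 30.04 to 70.7 CPM. Cluster 15, led by Ly6d, had Hey1 at 22.4 and 45.5 CPM and Hey2 at 6.23 and 12.9 CPM, near the Amh clusters, although its Notch2 was 105 and 139 CPM. It met 6 of 10 granulosa markers but also 5 of 7 mesothelial markers. The per-cell gate named 228 of its cells granulosa and 10 mesothelial. The part of this mixed identity in its levels was not tested. Heyl varied less, from 62.3 to 121 CPM over all 6 clusters and both libraries. Cluster 7, with the immediate-early genes Egr3 and Arc among its leading genes, had the highest Hes1 in both libraries, and their part in it was not tested. Hes1 was lower in replicate 2 in each of the 6 clusters, and the clusters held different numbers of cells per library, 416 and 26 in cluster 2 and 88 and 203 in cluster 15.

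**Figure D3:**
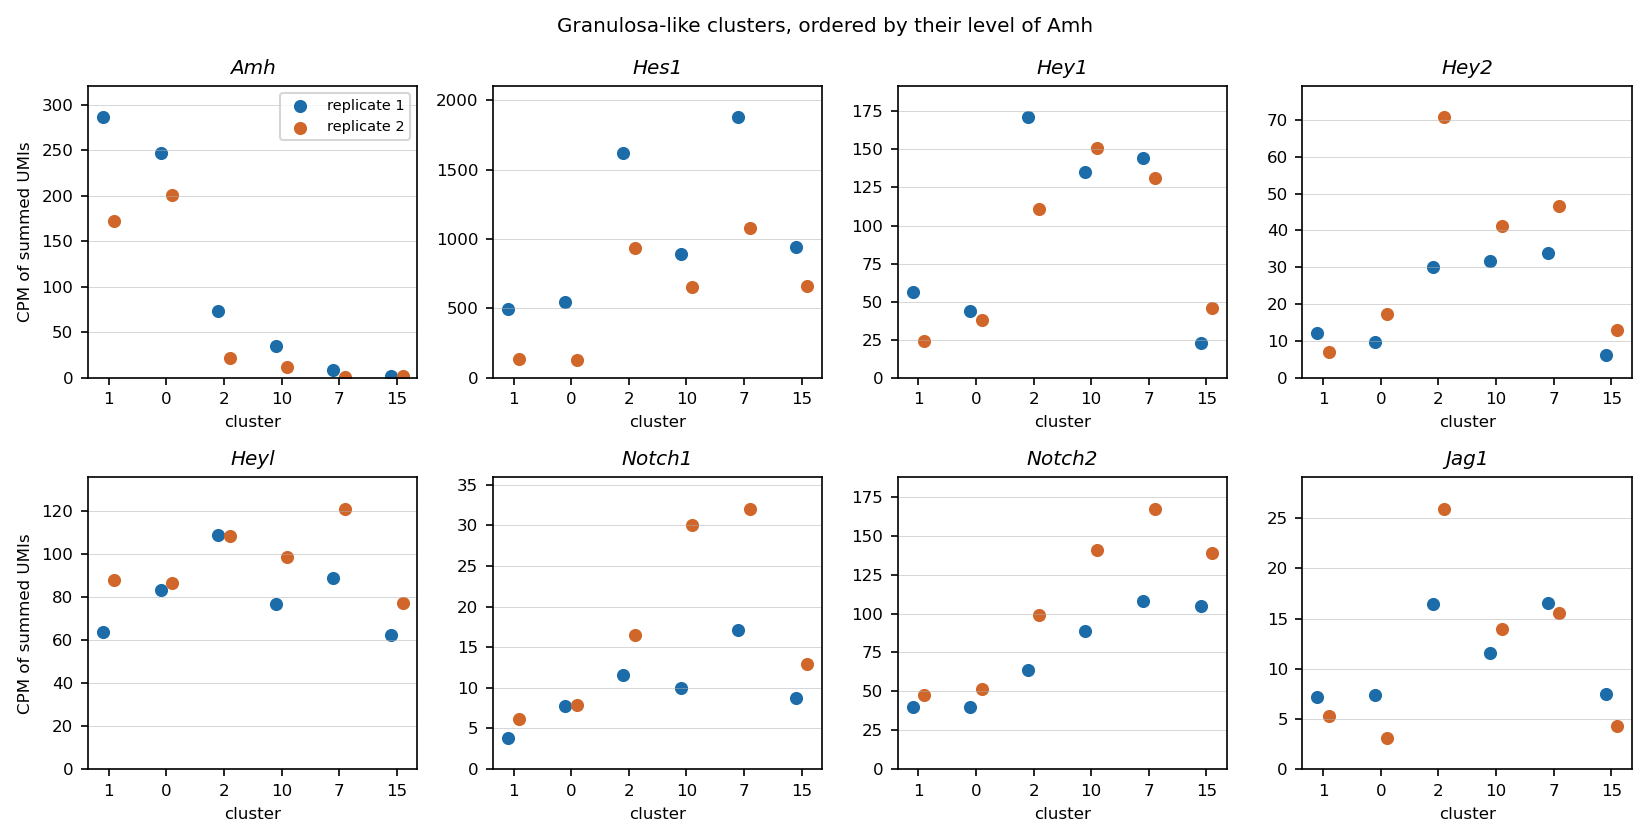
CPM of Amh and 7 members in the 6 granulosa-like clusters, ordered by Amh, with 1 point per library. Clusters 1 and 0, high in Amh, had the lowest Notch2 and Hes1 in both libraries.

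Among germ-like cells the Jagged genes were found across the range of RNA content. In cells with at least 50000 UMIs, Jag1 had 43.9 and 37.6 CPM and Jag2 90.4 and 74.2 CPM. In those with 10000 to 50000 UMIs, the levels were 28.1 and 34.0 CPM for Jag1 and 79.6 and 76.4 CPM for Jag2. In cells with fewer than 10000 UMIs, of which replicate 1 had 24 and replicate 2 had 216, Jag1 had 45.9 and 97.8 CPM (3 and 64 UMIs) and Jag2 76.4 and 77.9 CPM (5 and 51 UMIs). Notch2 had 15.3 and 61.1 CPM in that class, against 6.26 and 10.3 CPM in the RNA-rich cells. Its replicate 1 value there rests on 1 UMI and its replicate 2 value on 40. Hes1 had 91.7 and 79.5 CPM in that class against 29.1 and 44.3 CPM, and Hey1 had 0 and 21.4 CPM against 6.83 and 11.1 CPM. The part of somatic RNA in these values was not tested. Jag2 thus stayed between 74.2 and 90.4 CPM in every class.

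The share of cells with a UMI followed depth as well as level. Jag1 was seen in 80.3% (95% exact interval 74.7 to 85.2) and 58.7% (54.8 to 62.4) of germ-like cells, whose median depths were 76717 and 48524 UMIs. In granulosa-like cells, at medians of 9816 and 9165 UMIs, it was seen in 11.9% (10.4 to 13.6) and 10.95% (8.60 to 13.7). The mesothelial-like cells, lowest in Jag1 level, showed it in 2.14% and 2.75% at medians of 12235 and 11337 UMIs. With each cell thinned to 2000 UMIs, and 189 shallower cells left out, the Jag1 shares were 9.25% and 9.18% in germ-like, 2.60% and 2.49% in granulosa-like, and 11.8% and 6.25% in perivascular-like cells. For Notch2 the unthinned share of germ-like cells, 28.9% and 26.5%, was close to that of interstitial-like cells, 27.2% and 29.9%. After thinning these became 1.32% and 3.57% against 10.5% and 14.1%, in the order of the CPM. Hes1 was seen in 91.0% and 86.2% of granulosa-like cells before thinning and in 68.5% and 60.7% after it. At least 1 of the 3 receptor genes was seen in 44.7% and 56.2% of granulosa-like cells, and at least 1 ligand gene in 90.4% and 77.5% of germ-like cells.

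**Figure D4:**
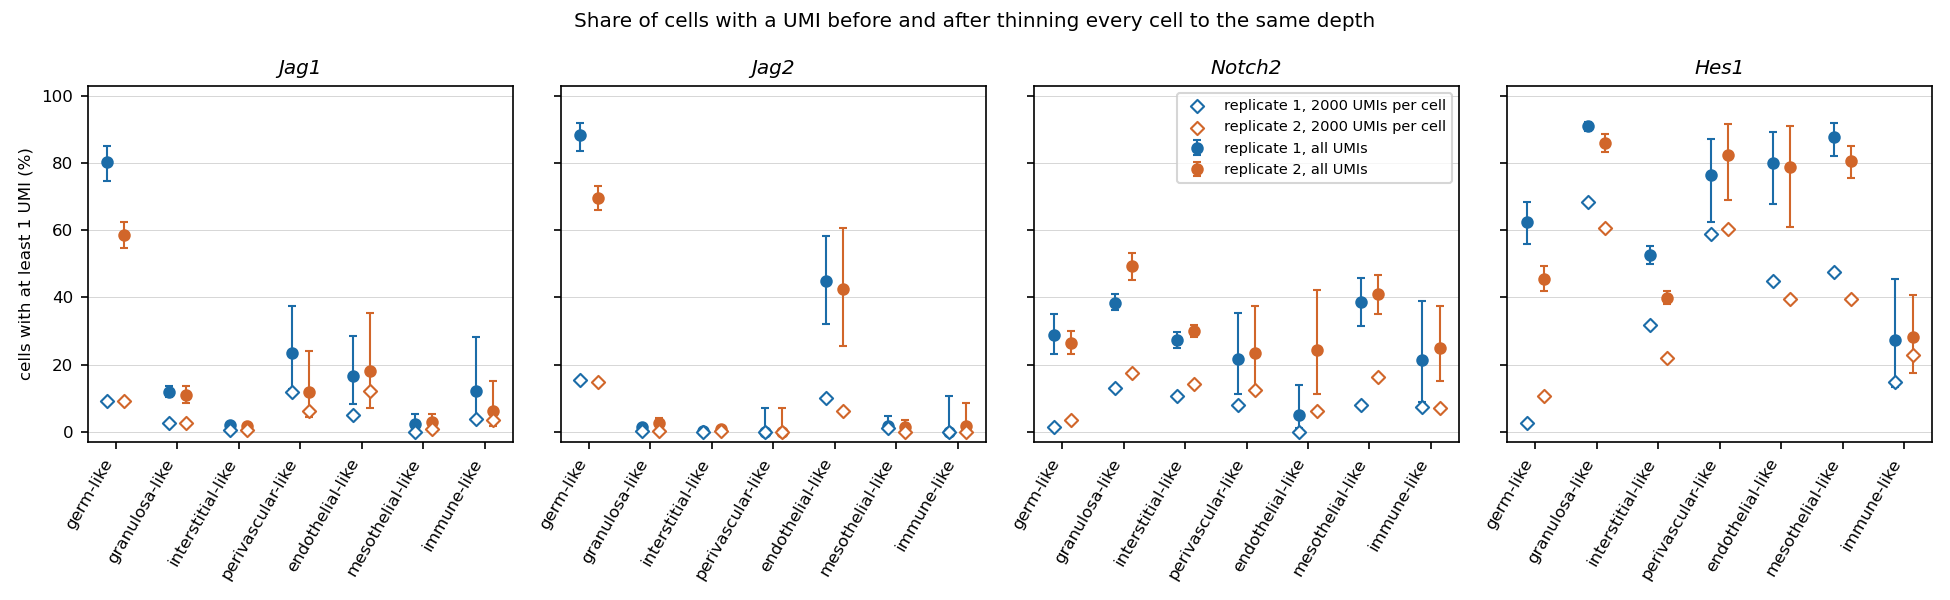
Share of cells with at least 1 UMI of Jag1, Jag2, Notch2 and Hes1 per cell type and library, with all UMIs (filled, exact 95% binomial intervals) and with every cell thinned to 2000 UMIs (open diamonds). Germ-like shares of Jag1 stood at 80.3% and 58.7% before thinning and at 9.25% and 9.18% after it.

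Cells with UMIs of both a ligand and a receptor member were commonest in endothelial-like cells, at 56.7% and 42.4%, and after thinning stood at 6.67% and 6.06% there, against 7.84% and 0% in perivascular-like cells. In granulosa-like cells they were 6.92% and 9.50% before and 0.543% and 0.166% after thinning. In germ-like cells the unthinned share of 33.5% and 28.6% became 0.441% and 1.19%. These shares describe transcripts in the same cell and not contact between cells.

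The other Notch genes were taken from a list of 41. In germ-like cells 7 of 41 were higher and 22 lower, beside 29.8% and 31.3% of all genes. In granulosa-like cells 14 were higher and 10 lower (all genes 17.6% and 24.2%), in interstitial-like cells 11 and 11 (17.2% and 27.4%), and in endothelial-like cells 7 and 7 (9.6% and 14.7%). In immune-like cells 7 were higher and 3 lower (9.95% and 11.4%). Of 40 tested, 5 were higher and 10 lower in mesothelial-like cells (10.9% and 20.2%), and 2 and 4 in perivascular-like cells (4.67% and 5.64%). The list medians in these comparisons ranged from -1.23 in germ-like cells to 0.40 in granulosa-like cells.

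Among other ligands and receptors, Dlk1, a Delta-like protein without the domain that activates Notch, had 1656 and 1108 CPM in interstitial-like cells and was higher there by 5.58 (adjusted p = 8.11e-06). It was called in all 7 types, lower in the other 6. Dll3, a Delta-like protein that does not activate Notch on neighbouring cells, had 35.6 and 35.9 CPM in germ-like cells (4.26, adjusted p = 0.000327). Notch4, an endothelial receptor, had 32.3 and 22.9 CPM in endothelial-like cells (4.36, adjusted p = 0.000235). Of the Fringe glycosyltransferases, which tune the choice of ligand, Mfng had 264 and 188 CPM in endothelial-like cells (7.42, adjusted p = 8.15e-07) and Lfng 26.1 and 33.1 CPM (3.41, adjusted p = 0.000335). Lfng was lower in granulosa-like cells (-3.98, adjusted p = 0.00219), and germ-like cells held 2 and 1 UMIs of it.

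Subunits of gamma-secretase were higher in germ-like cells, where Psenen had 766 and 769 CPM (2.19, adjusted p = 0.000359) and Psen2 72.2 and 65.6 CPM (1.97, adjusted p = 0.000517). Aph1a, another subunit, was lower there (-1.23, adjusted p = 0.00127), as was Adam10, the protease of the first cleavage (-1.30, adjusted p = 0.00196). Adam10 had 69.3 and 74.2 CPM in granulosa-like cells, where it was higher by 1.54 (adjusted p = 0.000256). Among Deltex genes, whose products bind the receptor's intracellular part, Dtx2 was higher in germ-like cells (188 and 172 CPM, 3.62, adjusted p = 0.000312). Dtx1 was higher in granulosa-like cells (24.6 and 49.9 CPM, 2.97) and in mesothelial-like cells (42.0 and 40.6 CPM, 2.28), with adjusted p = 0.00104 and 0.000233. Numbl, related to the Notch inhibitor Numb, was higher in interstitial-like cells (40.1 and 35.9 CPM, 2.67, adjusted p = 3.76e-05). In the nuclear complex, Rbpj had 44.7 and 36.9 CPM in granulosa-like cells (1.08, adjusted p = 0.00130), against 15.6 and 15.6 CPM in germ-like cells (-1.07, adjusted p = 0.00305).

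Nrarp, a target that also feeds back on the receptor, stood beside the 4 target members. It had 171 and 120.1 CPM in perivascular-like cells, 106 and 94.1 CPM in endothelial-like cells, 31.2 and 55.1 CPM in granulosa-like cells. Interstitial-like cells had 0.488 and 0.316 CPM. It was called higher in the first 3 of these types, by 3.39, 3.06 and 2.78 (adjusted p = 0.000803, 3.20e-05 and 0.000689), and lower in interstitial-like cells by a log2 fold change of -5.42 (adjusted p = 1.44e-05). Between granulosa-like and interstitial-like cells its log2 fold change was 6.69 (adjusted p = 3.28e-07), above that of each member, and between perivascular-like and interstitial-like cells it was 8.46 (adjusted p = 1.35e-06). Of the 41 listed genes, 38 were tested in each pair of types. In that last comparison 1 was called higher and 2 lower (all genes 3.51% and 2.73%), and between granulosa-like and interstitial-like cells 8 and 6 (14.4% and 12.6%). Between germ-like and granulosa-like cells the counts were 10 and 17 (26.7% and 30.8%), between mesothelial-like and granulosa-like cells 3 and 3 (8.46% and 7.22%), and between the vessel types 4 and 3 (4.4% and 3.87%).

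The genes most like each member were found by Pearson's r of log2(CPM + 1) over the 14 sums, among 9114 genes with a mean of at least 10 CPM, as a description over points that share 2 libraries. Notch3 was most like Pdgfrb (r = 0.975), Aspn (0.966) and Kcnj8 (0.962), of which Pdgfrb and Kcnj8 are pericyte genes. Dll4 was most like Grrp1 (0.967), Apln (0.965) and Aplnr (0.964), the last of these a receptor of endothelium and Apln its ligand. Heyl was most like Nrip2 (0.973), Atp1b2 (0.939) and Cry2 (0.936). Hey2 was most like Colec11 (0.949), Gsta3 (0.920) and Nrip2 (0.898). Hes1 was most like Mgrn1 (0.968), Prpf4b (0.935) and Ankrd10 (0.926). Hey1 had lower values, with Slc35d1 (0.886), Gmpr (0.869) and Nudt19 (0.865). Notch1 was most like Ptp4a3 (0.942), BC028528 (0.930) and Apold1 (0.928), and Notch2 like Axl (0.946), Plin3 (0.938) and Slc16a3 (0.924). Jag1 was most like Acsl1 (0.916), Tcn2 (0.904) and Txnip (0.892), and Jag2 like Rab11a (0.937), Rps23 (0.915) and Ly6a (0.902). Between members, the highest values were those of Hey2 with Heyl (0.876) and of Notch1 with Dll4 (0.750), and the lowest was that of Notch2 with Jag2 (-0.821).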

How the data were processed

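Whole ovaries of postnatal day 2 CD1 mice were captured as 2 single-cell 3′ libraries. The labels name the v2 reagent kit and the study's methods the v3 kit, and which was used was not settled. The authors deposited raw UMI counts per gene and cell, and the submitters' processing notes name Cell Ranger 3.0.2 and GRCm38. Gene positions were taken from GENCODE M21. Germ-like cells gave 32.4% and 48.7% of the UMIs of named cells.

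Barcodes under 500 detected genes, or with over 10% of counts from mitochondrial genes, were dropped. Doublets were scored with scrublet in each library and removed above a score of 0.225, the threshold found for replicate 1, in both. Cells were clustered with scanpy 1.11.5 (2000 variable genes, less the Notch genes, 30 principal components, 15 neighbours, Leiden resolution 1). Of 23 clusters, 21 were named, where at least 3 markers stood 2-fold above their mean across clusters and were seen in 10% of cells. Clusters 12 and 13 also met this for germ markers but were left without a name, 149 cells in all. In cluster 12 most gated cells were of another type, and cluster 13 was shallow (median 695 UMIs) without germ markers among its leading genes. The rules were settled after the clusters were seen. UMIs were summed per cell type and library (14 sums) and tested with edgeR 4.0.16 (R 4.3.3): quasi-likelihood test, TMM scaling, filterByExpr, Benjamini-Hochberg adjustment over all genes tested. Each type was tested against the sum of the other named cells of its library, and 5 pairs of types in one fit. In that sum each type weighs by its UMIs, so RNA-rich germ-like cells weigh more than their number of cells. Fits were also run on simulated counts, where all types shared the same profile apart from a set of changed genes. The real types differed in more genes, so that run cannot decide how the fits perform on them. With 2 libraries, each from pooled littermates, p-values measure the spread between these 2 captures. Shares have exact Clopper-Pearson intervals, and a count of 0 was given the limit of 3 counts. TMM moved log2 fold changes by -0.05 to 0.33 from scaling by library totals.

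The alternatives were DESeq2 1.42.0, library totals, no filter, a replicate block, a marker gate per cell, cells thinned to 2000 UMIs, doublets kept, other types weighted equally, only the types compared, and each library left out. The members, lists and tests were chosen with earlier results of these data known. Besides the members, at most 2 called genes of the list per comparison and genes called in at least 3 types could be named, and the 3 genes most like each member. The leading genes of clusters were named after their values were seen. Same-numbered sums come from one capture. They deviated from their type means with correlations of 0.01 to 0.27 between types (14259 genes), and the cause was not tested.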

Additional observations from a re-analysis of the deposited data

Results flagged for a closer look

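Cells that had no named type entered none of the comparisons, and members were counted in them. These were 149 cells, 12 of replicate 1 and 137 of replicate 2, most of them in a shallow cluster led by haemoglobin genes. They held 54 UMIs of Hes1, 38 of Notch2 and 7 of Jag2, each above the limit of 3 counts that a count of 0 allows. The other 7 members had at most 2 UMIs there.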

How the results depend on the processing

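The members had 75 called values, higher or lower, and all 75 kept their direction and call with DESeq2, without the filter on low counts and with the replicate block. With library totals and with doublets kept 74 did, with the marker gate 63 of 72, after thinning 52 of 72, with only the types compared 30 of 31, and with the other types weighted equally 39 of 44. The gate names no immune-like cells, and after thinning 3 lower values of Dll4 fell under the count filter. That weighting turned Notch1 in granulosa-like cells to -0.84 and Notch3 in interstitial-like cells to -1.88. The marker gate left 3 of 6 calls between perivascular-like and interstitial-like cells. Between the vessel types, 7 members were called without the filter, and 8 to 9 were over 2-fold apart in a single library, against 4 called. Shares of all genes were computed for the main setting only, so the counts under alternatives have none beside them. Of 70 pairs of member and type, 15 were called higher, beside 4.67% to 29.8% of all genes depending on the type. After thinning 10 were called, and 16 to 19 were over 2-fold higher in a single library, which has no test. The replicate block gave 16 and lost no call. Thinning gives fewer UMIs and other weights to cells, and the cause of the other losses was not tested. Over 2-fold in the same direction were 70 of 75 values in replicate 2 alone and 74 in replicate 1 alone, where Notch2 in interstitial-like cells had 0.93. The 5 that were not in replicate 2 were lower calls, of Notch2 and Heyl in endothelial-like, Notch3 in granulosa-like, and Heyl in interstitial-like and mesothelial-like cells. The germ-like value of Heyl was -5.96 in replicate 1 alone and -2.83 in replicate 2 alone, and that of Hey2 -5.04 and -1.64. Small UMI totals, from few cells, limit the vessel and immune types most, where a count of 0 allows up to 12.4 CPM.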
